A study of Mus musculus with 24 samples.

Results

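The genes described here were 10 basic leucine zipper (bZIP) transcription factors of the AP-1 network, measured in skin of mouse embryos with both, a single or neither copy of the genes for desmoglein 1 (Dsg1). They were the Fos family (Fos, Fosb, Fosl1 and Fosl2), the Jun family (Jun, Junb and Jund) and the partners Atf3, Batf and Maff, all of which were found among the 54087 gene symbols of the count table. The list was chosen by the known roles of these genes in keratinocytes and by a measured value, the rise of Fosl1 in KO against WT. The differences of Fosl1 between KO and the other genotypes are therefore a description, and where Fosl1 is counted as past a threshold in KO, nothing is read from it.

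AP-1 is a dimer of a Fos-family and a Jun-family protein, or of 2 Jun-family proteins, that binds the DNA sequence TGANTCA. Many of its genes belong to the immediate early genes, which are transcribed quickly and briefly after growth factors, stress or wounding. In the epidermis, AP-1 proteins are known for controlling genes of terminal differentiation such as involucrin and for responding to injury.

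Skin was taken at E18.5 (E, embryonic day) on a C57BL/6 background. KO embryos lacked the tandem Dsg1c, Dsg1a and Dsg1b genes on both chromosomes after CRISPR/Cas9 editing, HET embryos lacked them on a single chromosome, and WT embryos carried both intact copies. Dsg1 is a cadherin of desmosomes, the junctions that hold keratinocytes together. The deletion came from a single founder, and it is constitutive, so that every cell of the KO skin carried it. The dorsal skin was frozen whole, so fewer cells of a type and less RNA per cell cannot be told apart in any value below.

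The 24 libraries (8 per genotype) held 8.98 M to 20.96 M counts (M, mega). Libraries with the same title number and genotype were summed, which gave 5 columns per genotype with 19.46 M to 33.68 M counts in WT, 15.28 M to 29.81 M in HET and 20.73 M to 33.60 M in KO. Values are CPM, counts scaled to a common library size of 1e+06 with TMM factors. Dsg1 genes held 2 to 21 counts in each KO library, against 8799 to 18328 in each WT library. In WT replicate 2 the 2 summed libraries did not match each other (chi-square per degree of freedom 15.57, against 1.594 to 1.858 for the other 8 numbers with 2 libraries). The first library had 338 CPM of Y-linked genes and 0.275 CPM of Xist, and the second 0.157 and 574 CPM. These are a male and a female pattern, so this column appears to join libraries of different embryos. Both had Dsg1 levels like the rest of WT. Counts of the 10 genes past the threshold are given with and without this column. Y-linked genes were also high in WT replicate 5, HET replicates 1, 4 and 5 and KO replicates 2, 3 and 4. The sexes were thus not spread evenly over the genotypes. Keratinocyte markers (Krt5, Krt14, Krt1, Krt10, Trp63 and Krtdap) were abundant in every column, with a summed level of 54200 to 74300 CPM in WT, 54300 to 71900 CPM in HET and 67300 to 94300 CPM in KO.

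The DNA upstream of the genes that carry the results is shown first. The sequences are the 250 bases before the transcription start from RefSeq on GRCm38.p6, read 5′ to 3′ on the strand of the gene. Fos is at chr12:85473640-85473889 (plus strand) and Jun at chr4:95052223-95052472 (minus strand). Among known AP-1 targets, Ivl is at chr3:92573736-92573985 (minus strand) and Sprr1b at chr3:92438780-92439029 (minus strand). In Fos the capitals mark TGACGT, the core of the cyclic AMP response element, and the TATA box TATAAA. In Jun they mark an 8-base relative of the AP-1 site, TGANNTCA. In Ivl and Sprr1b they mark the AP-1 site TGANTCA and the TATA box.
Fos: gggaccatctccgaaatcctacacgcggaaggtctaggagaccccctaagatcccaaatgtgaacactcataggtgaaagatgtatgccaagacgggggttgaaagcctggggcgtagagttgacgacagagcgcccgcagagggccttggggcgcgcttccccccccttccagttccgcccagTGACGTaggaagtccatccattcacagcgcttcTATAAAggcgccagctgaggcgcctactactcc
Jun: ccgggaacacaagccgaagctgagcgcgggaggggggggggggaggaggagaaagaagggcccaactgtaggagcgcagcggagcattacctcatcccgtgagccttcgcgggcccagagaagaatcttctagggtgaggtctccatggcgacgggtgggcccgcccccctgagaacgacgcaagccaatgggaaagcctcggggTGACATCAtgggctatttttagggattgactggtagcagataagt
Ivl: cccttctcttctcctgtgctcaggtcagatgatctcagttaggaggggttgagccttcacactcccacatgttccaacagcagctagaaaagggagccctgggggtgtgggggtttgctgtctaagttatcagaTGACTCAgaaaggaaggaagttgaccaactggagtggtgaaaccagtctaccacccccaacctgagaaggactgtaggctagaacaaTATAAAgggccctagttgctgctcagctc
Sprr1b: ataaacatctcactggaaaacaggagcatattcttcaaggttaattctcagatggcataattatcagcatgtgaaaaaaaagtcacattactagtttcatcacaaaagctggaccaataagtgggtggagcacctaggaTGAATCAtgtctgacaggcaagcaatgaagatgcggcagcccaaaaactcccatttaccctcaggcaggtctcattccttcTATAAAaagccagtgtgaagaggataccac

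On either strand of the upstream 250 bases, TGANTCA was found in 6.75% of 32851 promoters, TGANNTCA in 11.9% and TGACGT in 6.47%. TATAAA, sought on the strand of the gene only, was found in 7.59%. TGANNTCA and TGACGT overlap where a full cyclic AMP element is present. The table held 11 promoters of 9 of the 10 genes. TGACGT was present upstream of Fos (66 bases before the start), Atf3, Batf and Maff, and TGANNTCA upstream of Jun (45 bases before the start), Jund and Maff. No listed promoter of the 10 genes held TGANTCA in this window. A list of 22 genes known as AP-1 targets in keratinocytes had 15 genes in the table, of which 9 held TGANTCA (Flg, Ivl, Lor, Mmp10, Mmp13, Mmp3, Plaur, Sprr1a and Sprr1b). It began 116 bases before the start in Ivl and 111 bases before it in Sprr1b. These matches describe letters, not bound sites.

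The levels of the 10 genes were then compared with each other per kilobase (kb) of exonic length, with lengths taken from GENCODE vM21. In WT the Jun family was the most abundant, with a mean of 45.1 CPM per kb for Jund, 44.2 for Junb and 39.5 for Jun. These 3 genes overlapped in range from neighbour to neighbour. A middle group was made of Fosl2 (21.9 CPM per kb), Maff (14.9) and Fos (12.2), each of which overlapped with the next. Below them lay Atf3 (4.91 CPM per kb), Batf (1.92), Fosl1 (0.543) and Fosb (0.142), and none of these overlapped with its neighbours. The order in HET was the same but for Junb and Jund, which changed places.

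**Figure D1:**
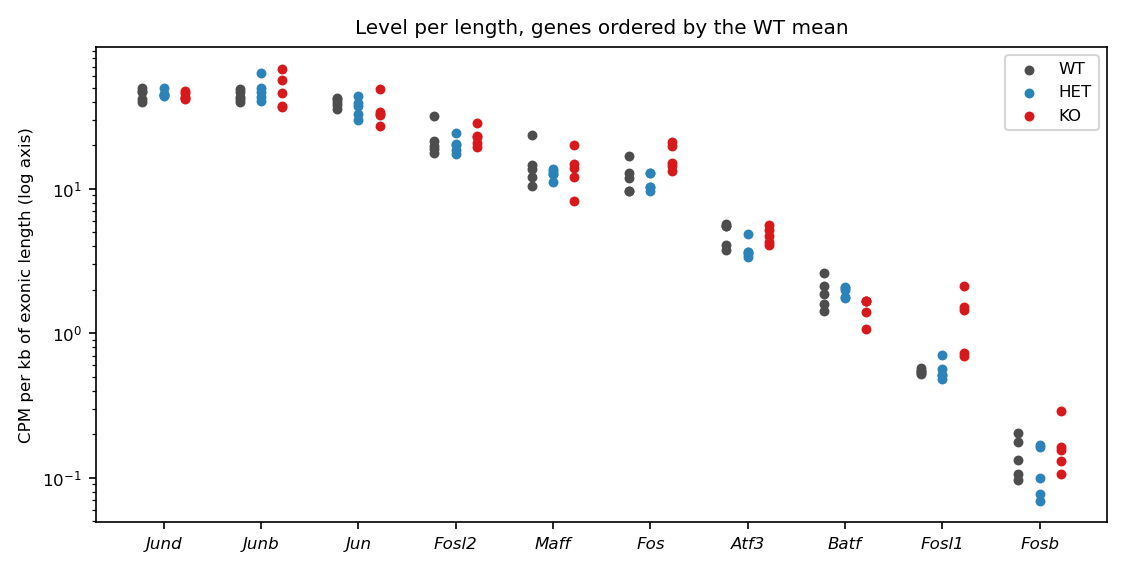
Level of each gene in CPM per kb of exonic length on a log axis, with 1 point per column and the genes ordered by the WT mean. The Jun family has the highest means in all genotypes, with single columns from 27.2 (Jun in KO) to 67.9 CPM per kb (Junb in KO). Fosl1 in KO moves up to the range of Batf.

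In KO the ranges of Fosl1 (mean 1.30 CPM per kb) and Batf (1.49) overlapped, which they did not in WT or HET. Fosl1 made up 1.63 ± 0.354% of the summed level per kb of the Fos family in WT, 1.76 ± 0.361% in HET and 3.14 ± 1.35% in KO (SD, n = 5 each). Fosl2 was the main Fos-family transcript throughout, with 62.9 ± 3.74% in WT, 63.0 ± 2.10% in HET and 55.9 ± 5.29% in KO. Fos accounted for most of the rest, at 35.1 ± 3.58%, 34.9 ± 2.26% and 40.6 ± 3.88%. Even after its rise, Fosl1 was thus a minor part of the Fos-family message in whole skin. The summed Jun family exceeded the summed Fos family per kb by a factor of 3.85 ± 0.814 in WT, 4.13 ± 0.527 in HET and 3.13 ± 0.193 in KO (SD, n = 5 each). The KO range of 2.97 to 3.42 lay within that of WT (2.52 to 4.54) and just below that of HET (3.44 to 4.73).

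Fosl1 encodes FRA1, a Fos-family protein without the transactivation domain of Fos that is known for its role in migrating and wounded keratinocytes. In WT, replicates 1 to 5 had 1.12, 1.07, 1.17, 1.06 and 1.11 CPM, from 23, 37, 37, 29 and 22 counts. HET replicates were at 0.976, 1.04, 1.14, 1.04 and 1.44 CPM, from 16 to 31 counts. KO replicates were at 1.47, 3.06, 1.40, 4.32 and 2.95 CPM, from 49, 83, 33, 84 and 62 counts. All KO columns lay above all WT columns, but replicates 1 and 3 were only just above them, and replicate 3 was below the highest HET column.

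The mean of Fosl1 was 1.1 ± 0.0443 CPM in WT, 1.13 ± 0.182 in HET and 2.64 ± 1.22 in KO (SD, n = 5 each). KO was 2.39 times WT, a log2 fold change of 1.24 (SE 0.27), and 1.22 above HET (SE 0.27). The spread between WT columns was a coefficient of variation of 4.02%, smaller than the 18.8% that counting alone gives, so the tightness of the WT group is not a measure of its precision. Between KO columns it was 46.3%, against 13.5% from counting. The 2 libraries of a KO column gave like values, with 1.45 and 1.47 CPM (scaled by total counts) in replicate 1, 2.96 and 2.8 in replicate 2 and 1.54 and 1.23 in replicate 3. KO embryos thus differed from each other in Fosl1 by more than their libraries did.

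No difference in Fosl1 between HET and WT was detectable at this depth. The log2 fold change HET vs WT was 0.03 (SE 0.28, 95% interval -0.56 to 0.62, adjusted p = 1, edgeR quasi-likelihood test). The interval leaves room for a modest change in either direction.

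Fosl1 and Ccdc85b overlap on opposite strands, and how strand was used in counting is not given in the sources used here. Ccdc85b had 22.2 ± 2.61 CPM in KO and 26.6 ± 3.58 in WT (log2 fold change -0.26, adjusted p = 0.185). Its level did not rise with that of Fosl1. Summed markers of several other cell types also had different means between the genotypes, with ranges that overlapped. The summed level of S100a8, S100a9, Ly6g, Mpo, Elane and Cxcr2 was 7.96 to 18.52 CPM in WT, 8.78 to 32.97 in HET and 14.9 to 80.95 in KO. Of these 6 genes, 4 could be tested and all 4 had a fold change above 0. The threshold was passed by 1 (Cxcr2, 2.31, adjusted p = 0.0891), against 1.15% of all genes tested. Ly6g was at 0.0429 CPM in KO and 0.0402 in WT. In KO most of the mean sum of 36.4 CPM came from S100a8 (14.6 CPM) and S100a9 (19 CPM). These 2 genes are also in the list of keratinocyte AP-1 targets below. KO replicate 4 was highest for both Fosl1 and the sum of this neutrophil list. KO replicate 5, with 2.95 CPM of Fosl1, had the lowest sum of the KO columns. Adipocyte markers (Adipoq, Plin1, Fabp4, Car3 and Lpl) were above WT for 5 of 5 (median log2 fold change 1.66, summed level 645 to 2180 CPM in WT, 1140 to 7390 in HET and 970 to 9500 in KO), with KO replicate 4 again highest. Erythroid markers were also above WT for 5 of 5 (median 0.55, summed level 1530 to 4690 CPM in WT, 1690 to 5560 in HET and 2860 to 8310 in KO). Fibroblast markers were below WT for 6 of 6 (median -0.24, 22400 to 36600 CPM in WT, 19900 to 32000 in HET and 14700 to 29500 in KO). None of the markers in these 3 lists passed the threshold. The part of these cell types in the Fosl1 level was not tested.

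**Figure D2:**
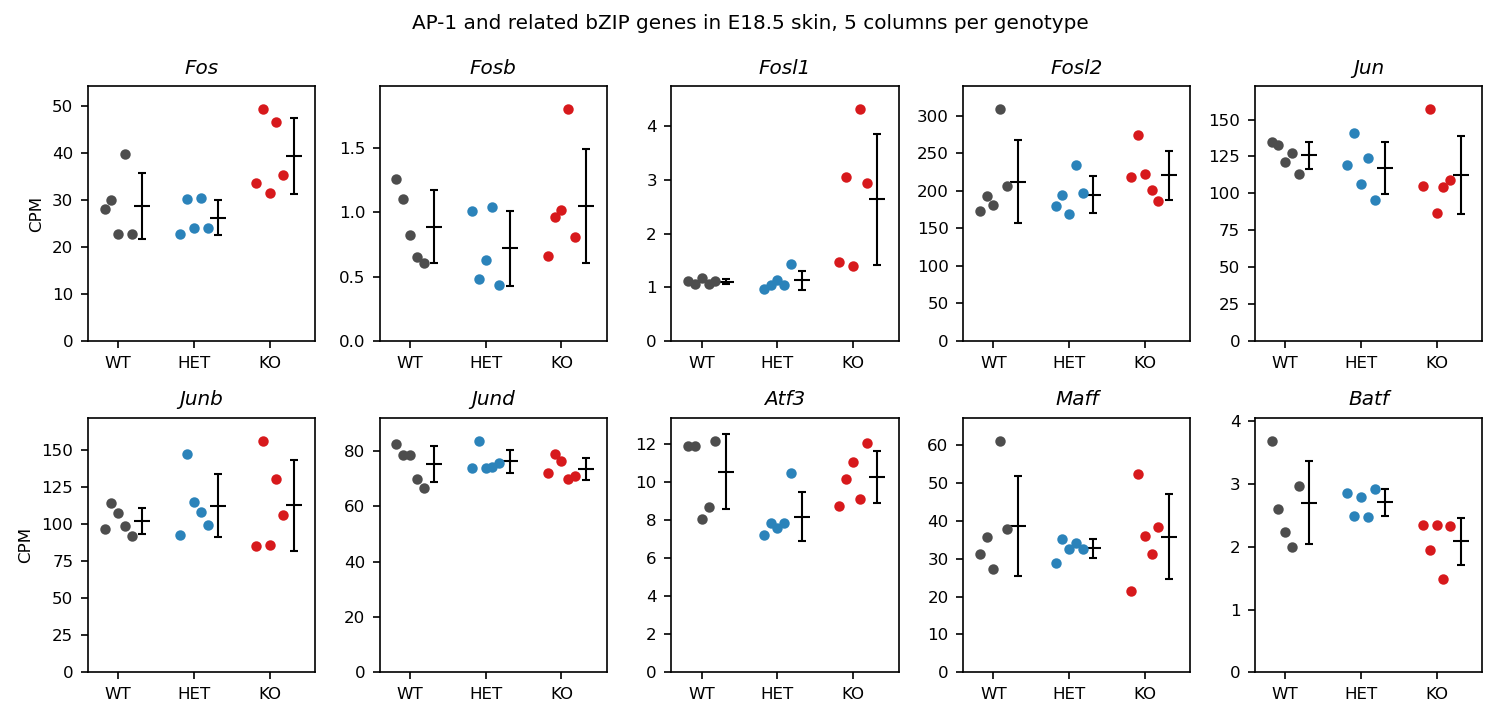
Level of each of the 10 genes in CPM by genotype, with 1 point per column (5 per genotype) and the mean ± SD as a bar beside the points. Fosl1 is above the WT range in all KO columns, Fos in KO is above all HET columns, and Batf in KO is below all HET columns.

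Fos, the founding member of the family and the best known immediate early gene, was at 28.1, 30.0, 22.7, 39.8 and 22.7 CPM in WT replicates 1 to 5. The HET replicates had 22.7, 30.1, 24, 30.4 and 24 CPM. KO replicates had 33.7, 49.3, 31.4, 46.5 and 35.3 CPM. All KO columns were above all HET columns and above 4 of the 5 WT columns, while WT replicate 4 lay within the KO range.

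Fos was 0.45 higher in KO than in WT on the log2 scale (SE 0.16, 95% interval 0.11 to 0.80), and the adjusted p of 0.164 missed the threshold of 0.1. Against HET it was 0.58 higher (SE 0.16, adjusted p = 0.154), and HET differed from WT by -0.13 (SE 0.16, adjusted p = 1). The call on Fos depended on the replicates and the tool. With DESeq2 the adjusted p for KO vs WT was 0.0969, without WT replicate 4 it was 0.0525 with edgeR, and over 31 alternatives it was 0.1 or below in 4. The fold change was above 0 in all 31.

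Fosb, which is induced alongside Fos, was close to the limit of detection, with 9 to 38 counts per column. It had 1.26, 1.1, 0.822, 0.655 and 0.604 CPM in WT, 1.01, 0.484, 0.625, 1.04 and 0.431 in HET and 0.661, 0.959, 1.02, 1.80 and 0.809 in KO. The groups overlapped. KO was 0.22 above WT (95% interval -0.45 to 0.88, adjusted p = 0.722), and no difference was detectable at this depth.

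Fosl2 encodes FRA2, the most abundant Fos-family transcript here. It had 173, 193, 181, 309 and 206 CPM in WT, 180, 194, 169, 235 and 197 in HET and 219, 274, 222, 201 and 187 in KO. WT replicate 4 stood well above its group, and the 3 genotypes overlapped. KO differed from WT by 0.06 (95% interval -0.26 to 0.37, adjusted p = 0.857).

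Among Jun-family genes, Jun, the classical partner of Fos, had 135, 133, 121, 127 and 113 CPM in WT, 119, 141, 106, 124 and 95.7 in HET and 105, 157, 86.6, 104 and 109 in KO. In KO, 4 of 5 columns were below all WT columns and the fifth, replicate 2, was above them. The fold change was -0.17 (95% interval -0.45 to 0.12, adjusted p = 0.506). The antisense gene Junos, which overlaps Jun, had 0.979 ± 0.259 CPM in KO and 1.42 ± 0.108 in WT, far below the level of Jun.

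Junb, which counters Jun in several settings and restrains skin inflammation, had 96.6, 114, 107, 98.8 and 91.9 CPM in WT, 92.5, 147, 115, 108 and 99.0 in HET and 84.8, 156, 85.8, 130 and 106 in KO. The KO columns lay on both sides of the WT range, with replicates 2 and 4 above it and 1 and 3 below it. The fold change was 0.15 (95% interval -0.19 to 0.48, adjusted p = 0.627). Prdx2, which overlaps Junb on the other strand, was more abundant than Junb but differed little between genotypes, with 306 ± 18.3 CPM in KO and 301 ± 26.6 in WT (adjusted p = 0.892).

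Jund, the Jun-family gene with steady expression in many cell types, had 82.5, 78.7, 78.6, 70.0 and 66.6 CPM in WT, 73.7, 83.7, 74.0, 74.3 and 75.7 in HET and 72.0, 79.0, 76.5, 69.7 and 70.8 in KO. All KO columns fell within the WT range. Its interval was the narrowest of the 10 genes (fold change -0.03, -0.19 to 0.12, adjusted p = 0.828).

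Atf3, a stress-induced factor that pairs with Jun proteins, was the member with the lowest p in HET vs WT. It had 11.9, 11.9, 8.09, 8.73 and 12.2 CPM in WT, 7.23, 7.85, 7.58, 7.87 and 10.5 in HET and 8.78, 10.2, 11.1, 9.15 and 12.1 in KO. In HET, 4 of 5 columns were below all WT columns, whereas all KO columns were within the WT range. The fold change HET vs WT was -0.36 (95% interval -0.67 to -0.05, unadjusted p = 0.0242, adjusted p = 1), and KO vs WT it was -0.04 (-0.35 to 0.27, adjusted p = 0.895).

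Batf, a factor best known from T cells and other leukocytes, had 3.69, 2.61, 2.24, 2 and 2.97 CPM in WT, 2.86, 2.49, 2.8, 2.47 and 2.92 in HET and 2.34, 1.95, 2.34, 1.49 and 2.33 in KO. The KO columns were all below the HET columns and overlapped with WT. Against HET the fold change was -0.37 (95% interval -0.75 to 0.01, adjusted p = 0.322), and against WT -0.36 (-0.73 to 0.02, adjusted p = 0.283). T cell markers (Cd3e, Cd3d, Cd3g, Cd2, Lck and Cd28) had summed levels of 8.61 to 10.63 CPM in WT, 7.75 to 11.99 in HET and 7.78 to 12.47 in KO, which overlapped.

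Maff, a small Maf protein that lacks a transactivation domain, had 31.2, 35.6, 27.3, 61.1 and 37.8 CPM in WT, 28.8, 35.2, 32.6, 34.2 and 32.6 in HET and 21.4, 52.2, 36.0, 31.1 and 38.4 in KO. WT replicate 4 was again the highest of its group, and the genotypes overlapped. The fold change KO vs WT was -0.11 (95% interval -0.57 to 0.36, adjusted p = 0.808).

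KO and WT were set against each other to see what the loss of Dsg1 does to these transcripts. Of the 10 genes, 5 were higher and 5 lower in KO, with a median log2 fold change of 0.01, against -0.01 over all 17094 genes tested. At an adjusted p of 0.1 or below there was 1 gene, Fosl1, on which the list was chosen, and 1.15% of all genes tested passed. KO columns were all above WT columns for 1 of the 10 (Fosl1) and for 1.61% of all genes. An unadjusted p below 0.05 was found for 2 of the 10 (Fosl1 and Fos) and for 19.3% of all genes. Beyond Fosl1, the share of the list past this limit was thus no larger than the background. Without WT replicate 2, none of the 10 passed, and with its libraries kept as 2 columns 1 did. KO replicate 4 held the highest Fosl1 value, and without it the log2 fold change of Fosl1 was 1.00 and none passed.

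**Figure D3:**
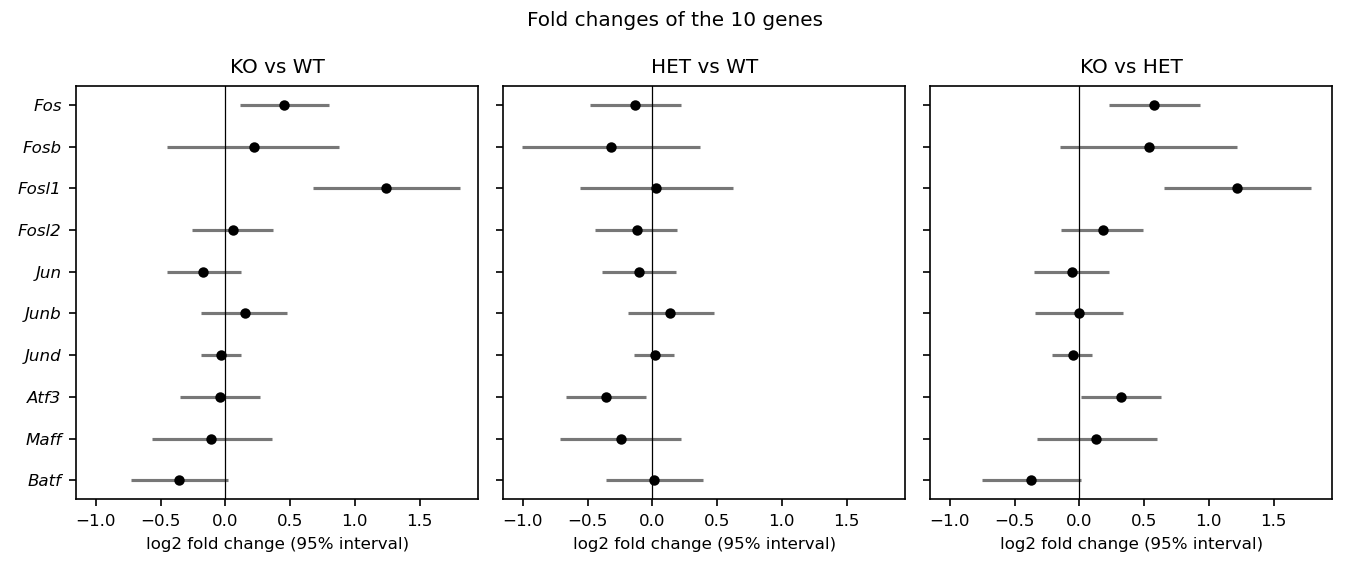
Log2 fold change (point) and 95% interval (bar) of each of the 10 genes in 3 comparisons from 1 edgeR fit, with a vertical line at 0. Fos has an interval above 0 in both comparisons with KO, Fosl1, whose rise chose the list, is farthest to the right in them, and Atf3 has an interval below 0 in HET vs WT.

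HET and WT were set against each other to see the effect of losing a single copy. None of the 10 genes passed the threshold with edgeR, with DESeq2 or with limma-voom on the 24 libraries (title series as a term and title number as a correlated block). Over all genes, 0% passed with edgeR, and 3 genes passed with DESeq2 and 3 with limma-voom. At an unadjusted p below 0.05 there was 1 of the 10 (Atf3), against 1.58% of all genes. Of the 10 genes 4 were higher and 6 lower, with a median of -0.11, against 0 over all genes.

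KO vs HET shares the KO columns with KO vs WT, so the values below are no independent support. Of the 10 genes, 7 were higher and 3 lower, with a median of 0.16 against 0 over all genes. The threshold was passed by 1 gene (Fosl1, also here a description) and by 0.333% of all genes. Without WT replicate 2 it was passed by none of the 10, and with the libraries of that column kept apart by 1. KO columns were all above HET columns for 1 of the 10 (Fos) and 0.954% of all genes, and all below them for 1 of the 10 (Batf) and 1.30% of all genes. An unadjusted p below 0.05 was found for 3 of the 10 (Fosl1, Fos and Atf3) and for 16% of all genes.

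Other AP-1 and Maf bZIP genes were described from a list of 13, of which 12 could be tested. KO was above WT for 8 and below it for 4 and the median log2 fold change was 0.20, and none passed the threshold. At an unadjusted p below 0.05, 5 were higher and 2 lower, against 19.3% of all genes in either direction. Atf2 (0.28, adjusted p = 0.161), Bach1 (0.31, adjusted p = 0.178) and Nfe2l2, the regulator of the antioxidant response (0.21, adjusted p = 0.189), were among those with the smallest adjusted p. In HET vs WT none of the 12 passed or had an unadjusted p below 0.05, and in KO vs HET none passed.

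Immediate early genes outside the bZIP family were next examined in a list of 18, with 17 tested. In KO, 13 were higher and 4 lower than in WT, with a median of 0.11. None passed the threshold. At an unadjusted p below 0.05, 5 of the 17 were higher and 0 lower, against 19.3% of all genes in either direction. Egr1, a zinc finger factor induced by the same signals as Fos, had the largest fold change of these at 1.31 (SE 0.37, adjusted p = 0.111). Its values were 27, 38.2, 31.2, 15.8 and 17.1 CPM in WT, 31.9, 31.1, 12.7, 18.4 and 14.3 in HET and 80.7, 84.8, 32.6, 89.4 and 34.8 in KO. KO replicates 1, 2 and 4 were far above WT, and replicates 3 and 5 fell within the WT range. Egr3 (0.62, adjusted p = 0.120), Btg2 (0.39, adjusted p = 0.178) and Zfp36, which destabilises inflammatory messages (0.51, adjusted p = 0.180), followed. The summed level of the 18 genes was 1220 to 1470 CPM in WT, 1110 to 1420 in HET and 1340 to 1850 in KO. With the mean level of this list as a covariate, the fold change of Fos in KO vs WT went from 0.45 to 0.20 and that of Fosl1 from 1.24 to 1.03. In HET vs WT none of the 17 passed, and 1 was lower at an unadjusted p below 0.05, against 1.58% of all genes in either direction.

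Genes of the kinases and factors upstream of AP-1 were examined in the same way. Of 19 listed, 18 were tested, 12 were higher and 6 lower in KO than in WT, and the median was 0.04. None passed. At an unadjusted p below 0.05, 3 of the 18 were higher and 0 lower, against 19.3% of all genes in either direction. Map2k4, a kinase that activates the JNK and p38 pathways, had 139, 143, 144, 158 and 155 CPM in WT and 189, 228, 157, 208 and 174 in KO, with KO replicate 3 inside the WT range (0.37, SE 0.10, adjusted p = 0.102). The protein kinase C gene Prkch (0.30, adjusted p = 0.217) and the p38 gene Mapk14 (0.16, adjusted p = 0.333) had smaller differences. AP-1 activity depends largely on phosphorylation of its proteins, which was not measured.

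Known keratinocyte targets of AP-1 were examined last. Of 22 listed, 21 were tested, and KO was above WT for 16 and below it for 5, with a median log2 fold change of 0.69, against -0.01 over all genes tested. The threshold was passed by 3, all higher in KO (Sprr1b and Krt16, and Ivl with a log2 fold change under 1), and by 1.15% of all genes tested. At an unadjusted p below 0.05, 12 were higher and 0 lower, against 19.3% of all genes in either direction. The list was drawn up with earlier results of these data known, and Krt16, Sprr1b and Ivl were already among them, so its counts are no independent evidence.

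Ivl encodes involucrin, a scaffold of the cornified envelope. WT replicates had 511, 490, 490, 482 and 576 CPM, HET replicates 628, 653, 601, 722 and 635 CPM, and KO replicates 703, 1140, 624, 962 and 898 CPM. Both HET and KO lay wholly above WT, as did 0.14% of all genes tested for HET and 1.61% for KO. KO overlapped with HET. KO was 0.76 above WT (SE 0.13, adjusted p = 0.0231), and HET was 0.35 above WT (SE 0.13, unadjusted p = 0.0187, adjusted p = 1).

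Sprr1b, a small proline-rich protein of the envelope that rises in stressed epidermis, had 9.07, 15.2, 28.9, 42.2 and 16.7 CPM in WT and 12.7, 36.2, 24, 16.8 and 25.5 in HET. KO replicates had 174, 232, 117, 265 and 104 CPM, all above every WT and HET column. The fold change was 2.99 (SE 0.43, adjusted p = 0.0171). Krt16, a keratin of wounded and hyperproliferative epidermis, had 440, 334, 54.5, 420 and 176 CPM in KO, against a range of 15.4 to 37.7 in WT and 18.2 to 86.7 in HET. It rose by 3.52 (SE 0.60, adjusted p = 0.0333), with KO replicate 3 inside the HET range. Hbegf, a ligand of the EGF receptor, had a fold change of 0.69 with an adjusted p of 0.102. All 31 alternatives left Ivl, Sprr1b and Krt16 higher in KO, and the adjusted p stayed at 0.1 or below in 27, 28 and 26 of them. Without WT replicate 1 the adjusted p of Krt16 was 0.105 (fold change 3.48), and without WT replicate 2 it was 0.121 (3.52).

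**Figure D4:**
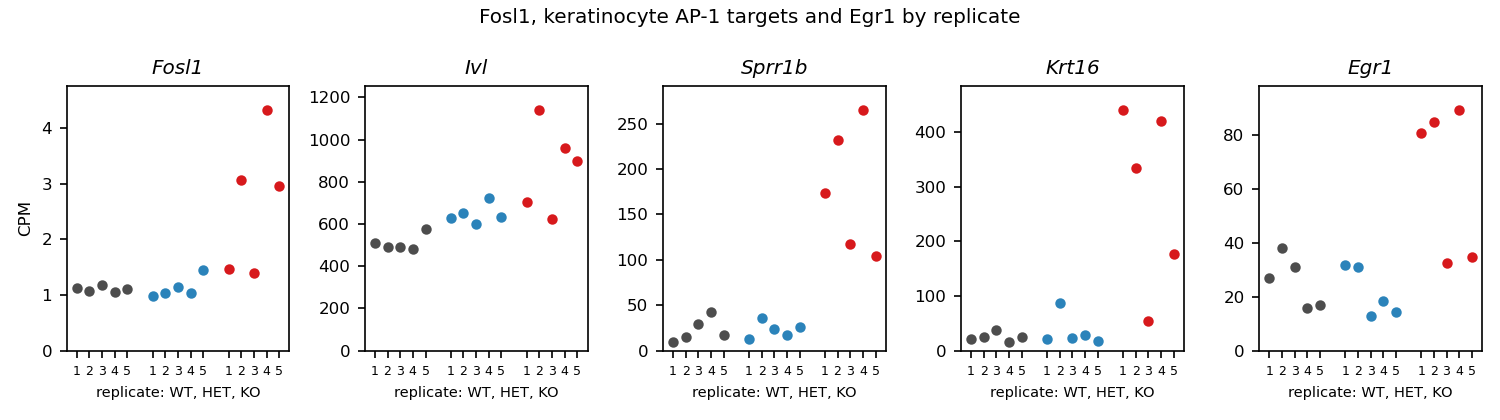
Level in CPM of Fosl1, the AP-1 targets Ivl, Sprr1b and Krt16, and Egr1 in each column, with replicates 1 to 5 of WT, HET and KO from left to right. KO replicate 3 is the lowest KO column for Fosl1, Ivl, Krt16 and Egr1, and replicates 2 and 4 are the highest for Fosl1, Ivl and Sprr1b.

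The replicates of the KO group followed a like order in several of these genes. Replicates 2 and 4 had the highest Fosl1, Fos, Junb, Ivl and Sprr1b of the KO columns, and replicate 3 the lowest Fosl1, Fos, Ivl, Krt16 and Egr1. This is a description of 5 columns, with no test. KO replicate 2 also had the highest keratinocyte sum (94300 CPM, against 67300 to 73500 in the other KO columns), whose part in these levels was not tested.

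Of the 12 targets higher at an unadjusted p below 0.05, 9 did not pass the threshold. Among these were Krt6a, a wound-induced keratin (3.13, adjusted p = 0.131), Sprr1a (1.78, adjusted p = 0.150), Il1b (1.46, adjusted p = 0.175) and Mmp9 (1.25, adjusted p = 0.164). Krt6a ran from 1.11 to 53.3 CPM in KO (mean 13.3, SD 22.4) and from 0.825 to 2.22 in WT. Its highest KO column thus held most of its KO level, and its lowest fell within the WT range. The collagenase gene Mmp13 (0.28, adjusted p = 0.771), the urokinase gene Plau (-0.02, adjusted p = 0.907), Cd44 (0.05, adjusted p = 0.766), Ccnd1 (-0.08, adjusted p = 0.700) and the loricrin gene Lor (0.08, adjusted p = 0.886) had fold changes close to 0 for all but Mmp13. All 9 genes named in this paragraph so far were chosen after their values were seen. Mmp3 and Plaur, also picked by their values, had the lowest fold changes of the 5 targets below WT. These were -0.77 (adjusted p = 0.314) and -0.26 (adjusted p = 0.375), with Mmp3 at only 0.318 CPM in KO and 0.56 in WT. S100a8 and S100a9, which are in the target list and in the neutrophil list, were at 1.71 (adjusted p = 0.102) and 1.73 (adjusted p = 0.109). In KO vs HET, 18 of 21 targets were higher and 3 lower, with a median of 0.66. There 2 passed (Sprr1b, 2.95, adjusted p = 0.0253, and Krt16, 3.0, adjusted p = 0.0877), against 0.333% of all genes. In HET vs WT none of the 21 passed, and 1 (Ivl) had an unadjusted p below 0.05, against 1.58% of all genes.

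Finally, it was asked which of the 10 genes varied with Fos between embryos of one genotype. Log2 CPM with the genotype mean removed was correlated over 15 columns, and 9 relations were tested by permuting columns within genotypes (100000 resamples, two-sided). Pearson's r with Fos was 0.62 for Jun (permutation p = 0.00776, adjusted p = 0.0668) and 0.63 for Junb (permutation p = 0.0148, adjusted p = 0.0668). It was 0.65 for Fosl2 (permutation p = 0.0255, adjusted p = 0.0764) and 0.65 for Maff (permutation p = 0.0353, adjusted p = 0.0794). Jun and Junb kept their r without WT replicate 4 and KO replicate 2, the 2 columns farthest from the median of Fos (0.60 and 0.69), whereas Fosl2 and Maff dropped to 0.24 and 0.27. The relations of Fosl2 and Maff with Fos thus rested on those 2 columns. Both also had the highest keratinocyte sum of their genotype (74300 CPM in WT replicate 4, 94300 in KO replicate 2), whose part was not tested. How many of all genes reach such an r with Fos was not counted. The relations are therefore not shown to be particular to the 10 genes.

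Spearman's rho with Fos was 0.55 for Jun (permutation p = 0.0389), 0.58 for Junb (0.0332), 0.44 for Fosl2 (0.146) and 0.46 for Maff (0.139), with adjusted permutation p of 0.175, 0.175, 0.262 and 0.262, all of which missed the threshold. Fosl1 had an r of 0.39 with Fos (adjusted p = 0.338) and a rho of 0.24 (adjusted p = 0.522), which missed the threshold in the same permutation test. Batf had the only r below -0.2, at -0.59 (permutation p = 0.0581, adjusted p = 0.105, rho -0.53 with an adjusted p of 0.262). For the others r was 0.21 (Fosb), 0.11 (Jund) and -0.19 (Atf3). Within the 15 libraries of the second title series, r was 0.43 for Jun, 0.46 for Junb, 0.66 for Fosl2 and 0.64 for Maff, and no adjusted p was 0.1 or below. The first title series held 9 libraries, 3 per genotype, and was not used for correlations.

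**Figure D5:**
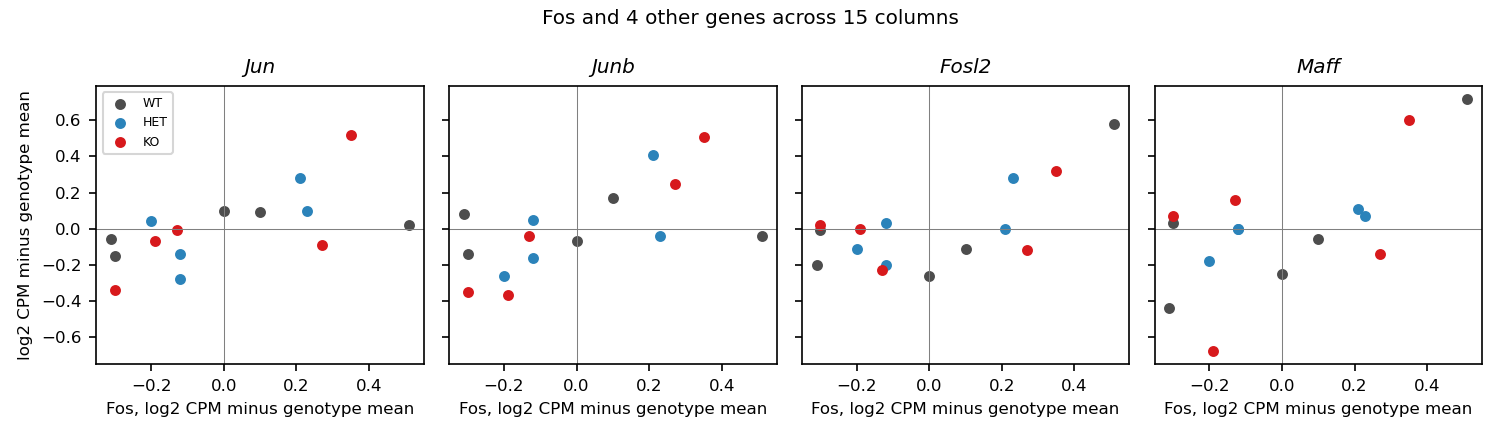
Log2 CPM of Jun, Junb, Fosl2 and Maff (vertical) against Fos (horizontal), each minus its genotype mean, with 1 point for each of 15 columns. Jun and Junb tend to rise with Fos, but WT replicate 4, with the highest Fos (0.51), is near 0 in both (0.02 and -0.04). For Fosl2 and Maff the columns WT replicate 4 and KO replicate 2 at the upper right set the slope.

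The genes whose pattern was most like that of Fosl1 or Fos were taken by the same measure from 15049 genes that averaged at least 20 counts. For Fosl1 they were RP23-31C9.5 (r 0.90), Ccl6 (0.89), Uchl4 (0.88), Sugct (0.88) and Tmem120b (0.87), over 15 columns. The likeness covers the variation between columns of one genotype and not the genotype means, which were 0.883 CPM in KO and 2.87 in WT for RP23-31C9.5 and 9.38 and 10.8 for Ccl6. For Fos they were Cmtm6 (r 0.94), Mfap3l (0.92), Nipal3 (0.88), Sdc4 (0.88) and Ezh1 (0.88). As the highest of many values, these r carry no test.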

How the data were processed

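RNA-Seq was done on poly(A) RNA from E18.5 dorsal skin of WT, HET and KO embryos (24 libraries, directional kit). The authors deposited raw counts per gene symbol, whole numbers with no scaling. The submitters' processing notes name STAR and HTSeq without a version and the build hg19, a human build, although the symbols are those of mouse. The annotation and the strand setting are not given in the sources used here.

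Libraries with the same title number and genotype were summed to 15 columns. This unit comes from the titles and was checked on the counts, which did not bear it out for WT replicate 2. Where libraries are not from separate embryos the p-values measure technical spread. The filterByExpr function of edgeR 4.0.16 (minimum count 10) kept 17094 genes. TMM-scaled counts were tested in R 4.3.3 with the robust quasi-likelihood test, all 3 genotypes in one fit and genotype as the only term, with Benjamini-Hochberg adjustment over every gene tested. The threshold was an adjusted p of 0.1, as in the study, but without the limit on the log2 fold change of 1 that the study also set. SE were derived from fold changes and F statistics. Alternatives used DESeq2 1.42.0, limma 3.58.1 (voom on 24 libraries, with title series and number), other scalings, filters, library sets and covariates. Scripts were tested on simulated data.

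The 10 genes and all lists were chosen with earlier results of these data known. The text names all 10 genes, up to 4 genes of each list with the smallest adjusted p in KO vs WT, and the 5 genes most like Fosl1 and Fos, apart from 2 list genes that are not reported here. Counting errors assume independent reads, which libraries lacking molecular identifiers do not give. Promoter sequences came from RefSeq (GRCm38.p6) and exonic lengths from GENCODE vM21, both matched by symbol. Matched by symbol, the lengths may differ from those the authors counted on.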

Additional observations from a re-analysis of the deposited data

Results flagged for a closer look

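Gaps were sought in 78 groups of 5 columns, each a gene within a genotype. The genes were the 10 described and up to 4 of each list with the smallest adjusted p in KO vs WT. Cell type markers and the other named targets, such as Krt6a, were not looked at. In 4 groups the highest or lowest column stood apart from its neighbour, by over 0.71 of the span from lowest to highest. Chance gives such a gap in about 1 of 20 groups, here 3.9. Fosl2 in WT was highest in replicate 4 (309 CPM against 173 to 206 in the others), a gap of 0.757 of the range. Jund in HET was highest in replicate 2 (83.7 CPM against 73.7 to 75.7), with a gap of 0.800. Atf3 in HET was highest in replicate 5 (10.5 CPM against 7.23 to 7.87), with a gap of 0.804, and this was the HET column that overlapped with WT. Krt16 in HET was highest in replicate 2 (86.7 CPM, within the KO range), with a gap of 0.841.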

How the results depend on the processing

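The covariate of Y-linked genes, the numbers in both title series alone and the numbers in series 2 alone were alternatives chosen after seeing the data. No paired analysis was possible because no title number occurs in more than one genotype. The cause of the changes below was not tested, other than for the filter.

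The fold change of Fosl1 stayed positive in all 30 alternatives that tested it, from 0.85 (numbers in both series alone) to 1.70 (numbers in series 2 alone) in KO vs WT and from 0.90 to 1.53 in KO vs HET. The count of the 10 genes past the threshold in KO vs WT was 1, namely Fosl1, on which the list was chosen, so the counts below describe and do not test it. It was 0 with series 1 alone, only the 2 genotypes compared, the immediate early covariate, the Y-linked covariate, the numbers in both series alone and the numbers in series 2 alone. It was also 0 at a mean of 50 or more counts, a filter that Fosl1 and Fosb did not pass (8 genes tested). It was 2 with 24 separate libraries, with DESeq2 and with limma-voom on the 24 libraries, where Fos was added. In limma-voom, title series was a term and title number a correlated block. With 1 column left out the count was 0 to 2 (0 without WT replicate 1, 2, 3 or 5, HET replicate 3 or KO replicate 4, and 2 without WT replicate 4). In KO vs HET the count was 1. It was 0 with series 1 alone, series 2 alone, RLE factors, a mean of 50 or more counts, 2 genotypes, the immediate early or Y-linked covariate, the numbers in both series alone and the numbers in series 2 alone. It was 4 with 24 separate libraries, 2 with limma-voom on the 24 libraries, DESeq2 and the muscle covariate, and 0 to 2 with 1 column left out (2 without WT replicate 4 or KO replicate 3 or 5, 1 without HET replicate 4 or KO replicate 1, and 0 without any other). In HET vs WT it was 0 under all 31 alternatives. Of the relations with Fos, 4 had an adjusted p of 0.1 or below, 2 without the 2 columns farthest from the median of Fos and 0 in series 2 alone.

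Fold changes near 0 changed sign. With the immediate early covariate, KO vs WT was -0.04 for Fosl2, -0.13 for Junb and 0.04 for Atf3. In series 1 alone Jund was 0.04 and Atf3 0.07, with the numbers in both series alone Jund was 0.01 and Atf3 0.07, and with the numbers in series 2 alone Maff was 0.01. In HET vs WT, Fos was 0.01 with the immediate early covariate and 0.10 with the numbers in series 2 alone, and Fosl1 was -0.02 in series 1 alone, 0 with the muscle covariate, -0.01 with the Y-linked covariate and -0.07 with the numbers in both series alone. With 1 column left out, KO vs WT ran from -0.05 to 0.36 for Fosb, -0.04 to 0.23 for Fosl2, 0 to 0.23 for Junb, -0.07 to 0.01 for Jund, -0.13 to 0.02 for Atf3 and -0.29 to 0.12 for Maff. HET vs WT ran from -0.20 to 0.02 for Fos and -0.07 to 0.08 for Fosl1. Depth limits Fosb, Fosl1 and Batf most, with counting errors of 20.6% to 26.1%, 13.5% to 19.9% and 12.1% to 14.5%.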
